A study of Mus musculus with 11 samples.

Results

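The miR-29 family was measured in small RNA libraries from the brains of 11 mice. Of the 1907 mature miRNA names listed for every library, 4 were taken by name: mmu-miR-29a-3p, mmu-miR-29b-3p, mmu-miR-29c-3p and mmu-miR-29a-5p. The rule for the choice used names alone, but earlier results of these data were known when it was made. The prefix mmu, for mouse, is left out where it is clear. All mice were male Balb/cOlaHsd with a labelled age of 3 months, and tissue was taken 3 days after surgery. In 5 mice the left middle cerebral artery was closed for good by thermocoagulation (pMCAO), and in 6 sham mice it was exposed and lifted without being closed. Both groups had isoflurane anaesthesia during surgery and tribromoethanol before the brains were perfused. The sample labels name the tissue as cortex in sham and as peri-ischemic cortex, the rim around the lesion core, in pMCAO, while the methods name peri-ischemic tissue for both. The labels name no other agent, although the tables of both groups are marked as vehicle without saying of what.

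A miRNA is cut from a hairpin-shaped precursor, whose 5p and 3p sides can each give a mature strand. Bases 2 to 8 of that strand, the seed, pair with target messenger RNAs and lower their output. The 3p strands of miR-29 are known regulators of collagens, elastin and other matrix genes and of the DNA methyltransferases Dnmt3a and Dnmt3b. In neurons they are also known to hold back BH3-only genes such as Bim, Bmf, Hrk and Puma, which promote apoptosis. The family is expressed in both astrocytes and neurons.

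The mature strands are shown because the seed defines the family, and because the 3p strands are so alike that reads could be shared between them. Capitals mark the seed, and each strand is written 5′ to 3′ from RefSeq with positions on GRCm38.p6. The strands read as follows.
miR-29a-3p, chr6:31062673-31062694 (-): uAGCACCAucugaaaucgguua
miR-29c-3p, chr1:195037600-195037621 (+): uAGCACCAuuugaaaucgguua
miR-29b-3p, chr6:31063025-31063047 (-) and chr1:195037091-195037113 (+): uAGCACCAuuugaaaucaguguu
miR-29a-5p, chr6:31062711-31062732 (-): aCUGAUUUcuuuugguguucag
miR-29c-5p, chr1:195037562-195037583 (+): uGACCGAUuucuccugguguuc

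The 3p strands shared the seed AGCACCA, which 3 of the 1679 mouse mature names in the RefSeq table carried. Counted from 1 at the 5′ end, miR-29a-3p and miR-29c-3p differed by 1 of 22 bases (C10U). From miR-29c-3p to miR-29b-3p there were 3 differences (G18A, U21G, A22U), and the first 17 bases were shared. The 5p strands of the miR-29a and miR-29c hairpins had seeds of their own, each carried by 1 name of that table. How reads that match several names were assigned is not given in the sources used here, so the split of counts between the 3p strands is uncertain.

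The strands came from 4 hairpins in 2 pairs. On chromosome 6, Mir29a (31062660 to 31062747) and Mir29b-1 (31063023 to 31063093) lay 275 bases apart on the minus strand. Mir29a overlapped no other annotated gene, and Mir29b-1 shared 2 bases with an exon of the lincRNA Gm27019. On chromosome 1, Mir29b-2 (195037040 to 195037120) and Mir29c (195037547 to 195037634) lay 426 bases apart on the plus strand. Both were wholly within exons of the non-coding gene A330023F24Rik on the same strand, and within an annotated UTR of Cd46 on the opposite strand. Because miR-29b-3p was identical from both of its hairpins, its counts could not be divided between the chromosomes, whereas miR-29b-1-5p and miR-29b-2-5p are separate names.

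Library totals were between 1429037 and 2319810 counts in sham and between 744877 and 1411620 in pMCAO, so every sham library was the deeper. The 25 pairs of libraries within a group all differed by more than sampling noise (lowest chi-square 18.0 for each degree of freedom). Of the 1907 names, 479 passed the filter on low counts and were tested with edgeR's quasi-likelihood test, and the 4 members were among them. Levels are given as CPM, counts scaled to a common library size, after TMM scaling, which corrects for library composition. The design text counts mice, so each library was taken as 1 mouse.

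miR-29 was among the most abundant miRNAs of this tissue. By mean share of library counts, miR-29b-3p ranked 3 with 7.07% and miR-29a-3p ranked 4 with 5.92%, after miR-124-3p with 19.0% and miR-128-3p with 7.62%, which are both typical of neurons. miR-29b-3p was at rank 2 to 4 and miR-29a-3p at rank 2 to 5 in every library. miR-29c-3p moved between rank 11 and rank 70, and miR-29a-5p between 186 and 216. These ranks compare counts of strands of similar length, and ligation and PCR efficiency, which differ between small RNAs, were not corrected.

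The first member, mmu-miR-29a-3p, was counted 51545 to 145487 times per library. In sham its lowest, median and highest levels were 46169, 67346 and 72624 CPM, and in pMCAO replicates 1 to 5 the levels were 62040, 60942, 60088, 57039 and 36547 CPM. The groups overlapped, and pMCAO replicate 5 was the lowest of the 11 libraries. The means were 63013 ± 11267 CPM (SD, n = 6) and 55331 ± 10664 CPM (SD, n = 5). The log2 fold change, pMCAO against sham, was -0.19 (standard error 0.16, 95% interval -0.52 to 0.15), with an adjusted p of 0.537 (edgeR, quasi-likelihood, Benjamini-Hochberg over all miRNAs tested). Without pMCAO replicate 5 it was -0.061, and with total counts alone as the scaling -0.0070. The libraries came from bulk tissue, in which fewer cells of a type and less RNA per cell cannot be told apart.

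The most abundant member, mmu-miR-29b-3p, was counted 44958 to 206572 times per library. Its lowest, median and highest sham levels were 52349, 77791 and 103062 CPM, beside 86825, 53154, 72071, 57907 and 49134 CPM in pMCAO replicates 1 to 5. The highest level was a sham library and the lowest a pMCAO library, with overlap in between. The sham mean of 78048 ± 18182 CPM (SD, n = 6) and the pMCAO mean of 63818 ± 15506 CPM (SD, n = 5) gave the largest difference of the 4 members, a log2 fold change of -0.29 (standard error 0.18, 95% interval -0.68 to 0.097, adjusted p = 0.380 from the same edgeR test). Without pMCAO replicate 5 it was -0.20, and with total counts alone as the scaling -0.11. The difference did not pass the threshold, and the upper bound corresponds to pMCAO levels of 1.07 times those in sham.

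The third 3p strand, mmu-miR-29c-3p, was less abundant and by far the most variable member. Its sham levels were 12108, 14198, 12283, 3295, 5949.6 and 6943 CPM in replicates 1 to 6, and its pMCAO levels were 12362, 7764, 12203, 7884 and 1774 CPM in replicates 1 to 5. Sham replicate 4 and pMCAO replicate 5 were the lowest, and both groups held libraries at the upper end of the range. The means were 9129 ± 4323 CPM (SD, n = 6) and 8397 ± 4323 CPM (SD, n = 5), and the log2 fold change was -0.12 with a standard error of 0.43, where the median standard error over the 479 miRNAs was 0.18. The 95% interval, -1.05 to 0.81, left both a fall and a rise possible, and the adjusted p was 0.943 from the same edgeR test. The value changed sign to 0.15 without pMCAO replicate 5, to 0.061 without sham replicate 2, and to 0.064 when libraries were scaled by total counts alone.

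The strand that pairs with miR-29a-3p in its hairpin, mmu-miR-29a-5p, was at the other end of abundance with 147 to 391 counts per library. Its sham levels had a minimum of 171, a median of 191 and a maximum of 228 CPM, and pMCAO replicates 1 to 5 were at 165, 213, 176, 189 and 223 CPM. The ranges of both groups were nearly the same. The log2 fold change was -0.0024 (standard error 0.12, 95% interval -0.26 to 0.25, adjusted p = 0.992 from the same edgeR test), which corresponds to pMCAO levels of 0.838 to 1.19 times those in sham. Without pMCAO replicate 5 it was -0.051. Scaling by total counts alone gave 0.18, and the median of all miRNAs tested moved to 0.18 as well.

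**Figure D1:**
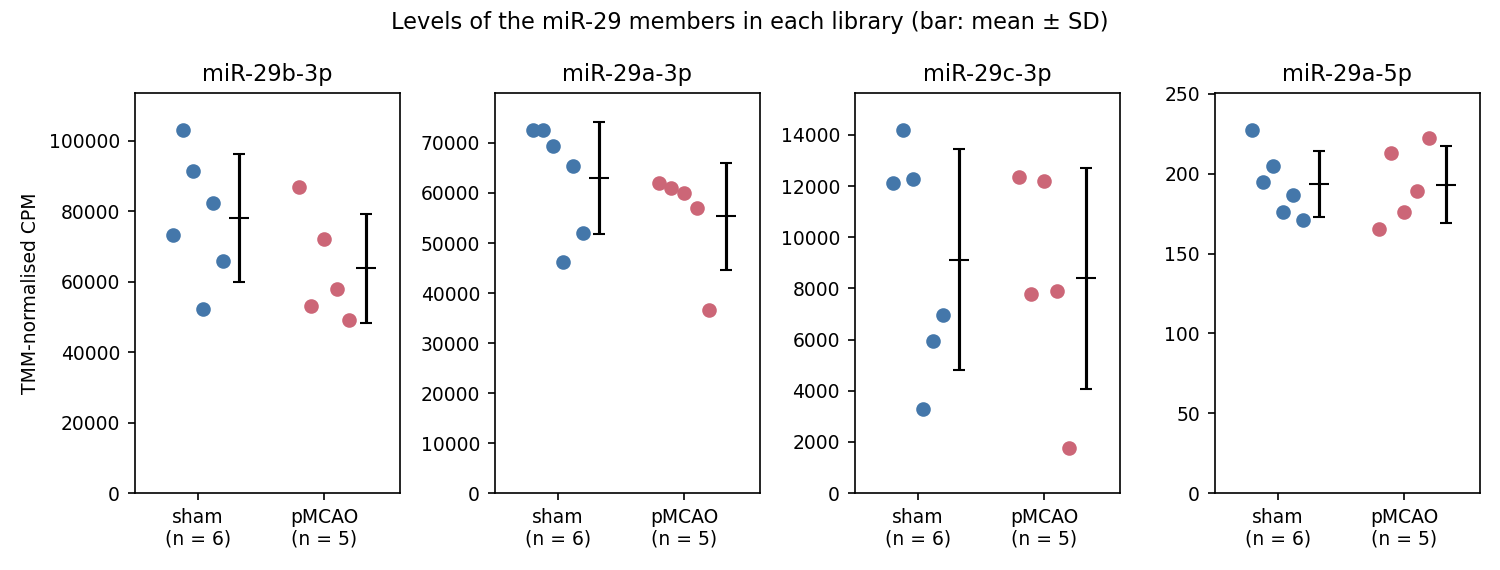
Each point is the TMM-normalised level (CPM, linear axis from 0) of a miR-29 member in 1 library, sham in blue and pMCAO in red, with the mean and SD of each group as a bar beside the points. The groups overlapped for all 4 members, and pMCAO replicate 5, the last red point, was the lowest library for all 3 of the 3p strands.

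At an adjusted p under 0.05 in the edgeR test, 0 of the 4 members passed, where 34 of all 479 miRNAs tested passed (7.10%). An unadjusted p under 0.05 was seen for 0 members and for 117 miRNAs, and DESeq2 called 0 members as well. The groups were separate without overlap for 0 of the 4 members, where 7.52% of all miRNAs tested were separate. The median log2 fold change of the members was -0.15, and that of all miRNAs tested was 0.0015. A p above the threshold does not show that the levels were equal, and the intervals above give the sizes that remain possible.

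The remaining strands of the hairpins, miR-29b-1-5p, miR-29b-2-5p and miR-29c-5p, also passed the filter, and 0 of the 3 were called. miR-29c-5p was the only strand of the 7 whose groups did not overlap, at 648 to 759 CPM in sham and 556 to 628 CPM in pMCAO. Its means were 694 ± 42.7 CPM (SD, n = 6) and 595 ± 31.4 CPM (SD, n = 5). The log2 fold change was -0.22 (standard error 0.092, 95% interval -0.42 to -0.023). The adjusted p of 0.154 in edgeR's quasi-likelihood test did not pass the threshold (unadjusted 0.0309), and 3.34% of all miRNAs tested were lower in pMCAO without overlap. With total counts alone as the scaling its log2 fold change was -0.046. The mean of miR-29b-1-5p was 51.0 ± 7.78 CPM in sham (SD, n = 6) against 47.5 ± 13.6 CPM in pMCAO (SD, n = 5). That of miR-29b-2-5p was 189 ± 34.7 CPM (SD, n = 6) and 181 ± 18.4 CPM (SD, n = 5). All 7 strands had log2 fold changes below 0 under TMM scaling. With total counts alone, those of miR-29a-5p, miR-29c-3p, miR-29b-1-5p (0.051) and miR-29b-2-5p (0.12) were above 0. The strands also share libraries and hairpins.

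**Figure D2:**
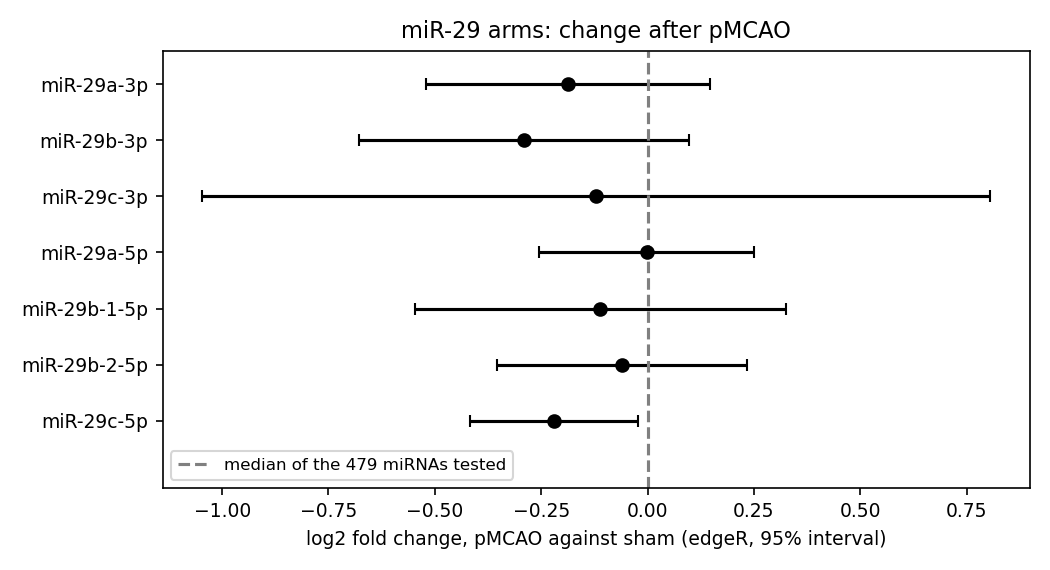
Points are log2 fold changes, pMCAO against sham, for the 7 strands of the miR-29 hairpins, with 95% intervals from the edgeR fit of all 11 libraries, and the dashed line is the median of the 479 miRNAs tested. Only the interval of miR-29c-5p (-0.42 to -0.023) lay wholly below 0, and that of miR-29c-3p was the widest.

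Within the family the order of levels was miR-29b-3p, miR-29a-3p, miR-29c-3p, miR-29c-5p, then miR-29a-5p and miR-29b-2-5p, and last miR-29b-1-5p. The ranges of miR-29b-3p and miR-29a-3p overlapped, but inside a library miR-29b-3p was the higher in 10 of 11, with pMCAO replicate 2 as the exception. The ranges of miR-29a-5p and miR-29b-2-5p also overlapped, and all other neighbours in this order were separate over the 11 libraries. The 4 members together made up 14.1% ± 2.37 (SD, n = 6) of sham counts and 13.6% ± 2.67 (SD, n = 5) of pMCAO counts, a difference of -0.53 percentage points that was smaller than either SD and turned to 0.47 without pMCAO replicate 5. Of the summed 3p strands, miR-29c-3p contributed 5.82% ± 1.91 in sham (SD, n = 6) against 6.19% ± 2.49 in pMCAO (SD, n = 5).

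**Figure D3:**
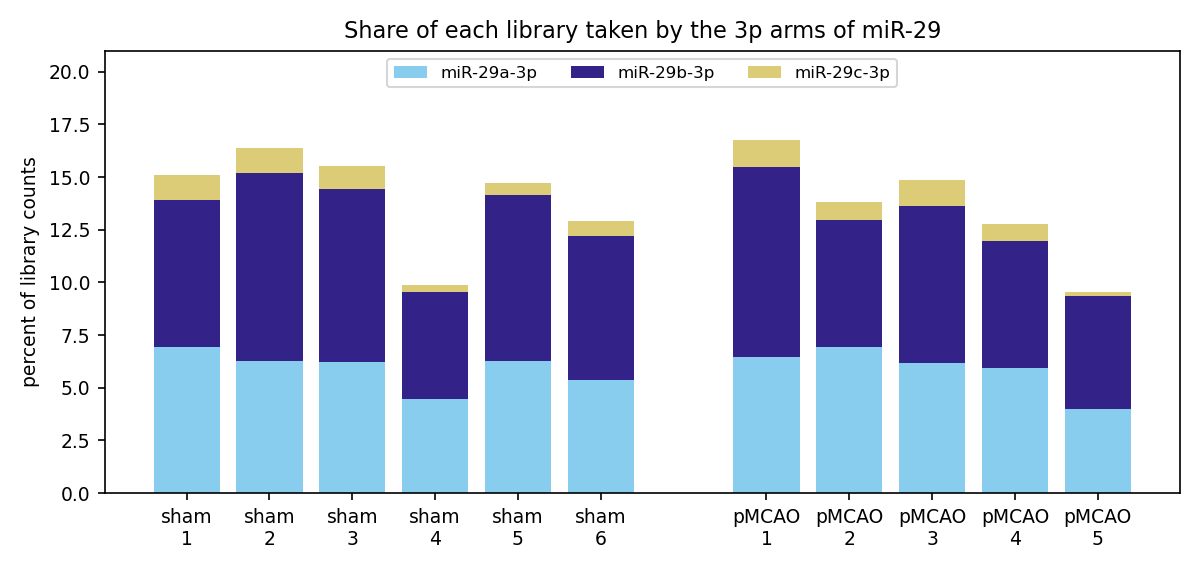
Stacked bars give the percent of all counts of a library taken by miR-29a-3p, miR-29b-3p and miR-29c-3p, on a linear axis from 0. The stacks ran from 9.57% in pMCAO replicate 5 to 16.7% in pMCAO replicate 1, and the sham stacks from 9.87% to 16.4%.

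Ratios of strands inside a library do not depend on how libraries are scaled, so they were used to ask whether the members moved apart after pMCAO. The ratio of miR-29b-3p to miR-29a-3p was 1.01 to 1.42 in sham and 0.872 to 1.40 in pMCAO, a log2 difference of -0.096 (exact permutation test over all arrangements of the libraries, two-sided, p = 0.522). The log2 ratio of miR-29c-3p to miR-29a-3p differed by -0.029 (p = 0.959) and that of miR-29c-3p to miR-29b-3p by 0.066 (p = 0.894) in the same exact permutation test. The log2 ratio of miR-29a-5p to miR-29a-3p differed by 0.19 (p = 0.472, same exact permutation test) and by -0.0081 without pMCAO replicate 5. After Benjamini-Hochberg adjustment over these 4 ratios every p was 0.959, and no change in the balance of the members was detectable.

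The 3p and 5p strands of the miR-29c hairpin behaved very differently from library to library. For each count of miR-29c-5p, sham replicates 1 to 6 held 16.0, 21.5, 16.8, 4.80, 8.79 and 10.7 counts of miR-29c-3p, and pMCAO replicates 1 to 5 held 22.2, 12.9, 19.6, 12.5 and 3.11. The highest and the lowest ratio were both in pMCAO, and no difference between the groups was detectable (log2 difference 0.0029 for miR-29c-5p to miR-29c-3p, p = 0.998 in an exact permutation test, two-sided, a ratio added after its values were seen). The variation lay in the 3p strand. The SD of log2 CPM of miR-29c-3p was 0.81 in sham and 1.15 in pMCAO, and 18 and 8 of the 479 miRNAs varied more. That of miR-29c-5p was 0.087 and 0.076, and 467 and 474 miRNAs varied more. Counting error was at most 1.91% for miR-29c-3p, far below this spread.

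Among 37 hairpins with at least 100 counts of both strands in every library, miR-29c had the most variable ratio of strands, with an SD of the log2 ratio within groups of 0.95 against a median of 0.25. Among all 143 hairpins with both strands tested it ranked 6, where the median was 0.39. A variable ratio was not particular to miR-29c. Hairpins of miRNAs that followed the pattern of miR-29c-3p, described below, also ranked high among the 143. Their SDs were 0.86 for miR-361 (rank 7), 0.77 for miR-99a (rank 10) and 0.57 for miR-434 (rank 27). The miR-29a hairpin, whose 3p strand is 1 base away from miR-29c-3p, had an SD of 0.34 and ranked 13 of 37. It held 262 to 372 counts of miR-29a-3p for each of miR-29a-5p in sham and 164 to 375 in pMCAO, and again pMCAO replicate 5 was the lowest.

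**Figure D4:**
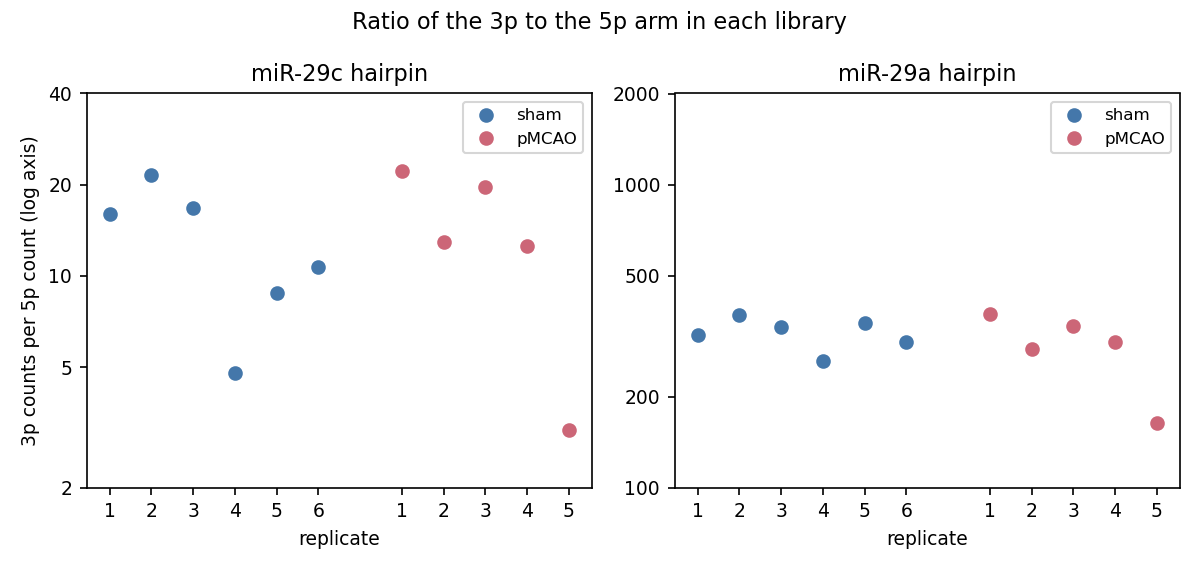
Points give the counts of the 3p strand for each count of the 5p strand in every library, for the miR-29c hairpin on the left and the miR-29a hairpin on the right, on log axes. For miR-29c the ratio ran from 3.11 to 22.2 within the pMCAO group alone, and sham replicate 4 and pMCAO replicate 5 were lowest in both hairpins.

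pMCAO replicate 5 stood apart for miR-29a-3p and miR-29c-3p, while its miR-29b-3p level was close to those of pMCAO replicate 2 and sham replicate 4. With 1411620 counts it was the deepest pMCAO library. For all 9 lists of marker and reference miRNAs examined, its summed level lay inside the range of the other 4 pMCAO libraries. Its neuron sum was at the upper edge, with 345037 CPM beside 293098 to 345038 CPM, and also inside the sham range of 342918 to 432743 CPM. Each sum mainly follows the most abundant miRNAs of its list, so it cannot show that the less abundant ones were at usual levels. Whether handling or dissection of this sample contributed was not tested.

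Other miRNAs followed the same pattern as miR-29c-3p. By Pearson correlation of log2 CPM over the 11 libraries, with 472 miRNAs as candidates, the closest were miR-361-5p (r = 0.960, Spearman rho = 0.818), miR-99a-5p (r = 0.933, rho = 0.773) and miR-434-5p (r = 0.887, rho = 0.582). Without the 2 libraries farthest from the median of miR-29c-3p, sham replicate 4 and pMCAO replicate 5, these r were 0.818, 0.731 and 0.331, so the likeness of miR-434-5p rested on those libraries. miR-361-5p was at 702, 596, 576, 257, 302 and 511 CPM in sham replicates 1 to 6 and at 569, 526, 639.5, 438 and 123 CPM in pMCAO replicates 1 to 5. Like miR-29c-3p it was lowest in sham replicate 4 among sham libraries and in pMCAO replicate 5 among all. The correlations are descriptions of the highest of many values, over points that share a library and its depth, and carry no test.

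The same 3 miRNAs were closest to miR-29a-3p, in another order, with miR-99a-5p at r = 0.860, miR-361-5p at 0.845 and miR-434-5p at 0.819. Without sham replicate 4 and pMCAO replicate 5 those values were 0.191, 0.272 and 0.014, so for miR-29a-3p they rested on these libraries. miR-29a-3p and miR-29c-3p themselves correlated at r = 0.911, or 0.589 without the 2 farthest libraries. For miR-29b-3p the closest were miR-384-3p (r = 0.802, and 0.824 without sham replicate 2 and pMCAO replicate 5), miR-101a-3p (0.714 and 0.476) and miR-379-3p (0.697 and 0.709). For miR-29a-5p they were miR-127-5p (r = 0.954, and 0.922 without sham replicate 1 and pMCAO replicate 5), miR-341-3p (0.863 and 0.890) and miR-1839-5p (0.777 and 0.643). Over all 11 libraries, strands of the same hairpin were less alike, with r = 0.275 for miR-29c-3p and miR-29c-5p and 0.025 for miR-29a-3p and miR-29a-5p. Without the 2 farthest libraries these were 0.107 and 0.619, so the low value of the miR-29a strands rested on those libraries.

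**Figure D5:**
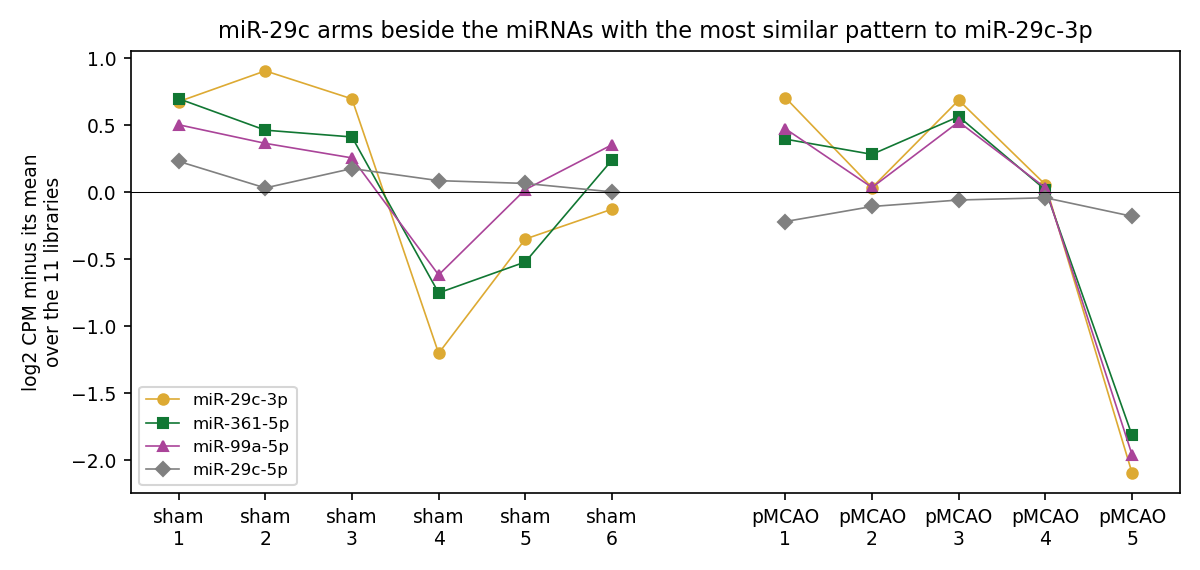
Lines give log2 CPM minus its mean over the 11 libraries for miR-29c-3p, for the pair of miRNAs most like it (miR-361-5p and miR-99a-5p) and for miR-29c-5p. The first 3 fell together in sham replicate 4 and most in pMCAO replicate 5, while miR-29c-5p stayed close to its mean throughout.

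To set miR-29 beside other miRNAs linked to BH3-only genes or to matrix and fibrosis, a pair of lists was read from the same fit. Of 11 other miRNAs known to target BH3-only genes, 3 were higher in pMCAO in the edgeR test and 0 were lower. The list median log2 fold change was 0.36, beside -0.15 for the 4 miR-29 members. Those 4 include miR-29a-5p, which has another seed. The strands with the shared seed were at -0.19 (miR-29a-3p), -0.29 (miR-29b-3p) and -0.12 (miR-29c-3p). miR-19a-3p rose by 1.00 (adjusted p = 0.0057 from edgeR), miR-92a-3p by 0.88 (adjusted p = 0.0252) and miR-20a-5p by 0.80 (adjusted p = 0.0183), all 3 from the miR-17-92 cluster. The call of miR-92a-3p was lost without sham replicate 3 or pMCAO replicate 2 (adjusted p up to 0.0693). Over all miRNAs tested, 4.38% were called higher and 2.71% lower.

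Of 6 other miRNAs linked to matrix and fibrosis, 2 were called higher and 0 lower, with a list median of 0.92. miR-21a-5p, which is widely induced in injured tissue, rose by 2.12 (standard error 0.25, adjusted p = 0.000395 from edgeR). miR-214-3p rose by 1.68 (standard error 0.41, adjusted p = 0.0296 from edgeR), a call that was lost without sham replicate 3, 4 or 6 or pMCAO replicate 2 or 5 (adjusted p up to 0.0816). The rest of this list was not called and went both ways. miR-199a-3p was at 1.06 and miR-199a-5p at 0.79. miR-30c-5p was at -0.51 (adjusted p = 0.0505 from edgeR) and miR-133a-3p at -0.45 (adjusted p = 0.0921 from edgeR). Both lists were written with results of these data known, and miR-21a-5p is the study's main miRNA, so the counts are descriptions.

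Of 8 miRNAs typical of neurons, 0 passed the edgeR test, with a median log2 fold change of -0.11, and their summed level was 342918 to 432743 CPM in sham and 293098 to 345038 CPM in pMCAO. The largest changes of this list went in opposite directions, miR-128-3p at -0.39 (adjusted p = 0.201 from edgeR) and miR-129-5p at 0.32 (adjusted p = 0.132), and miR-124-3p, the most abundant miRNA, was at -0.32 (adjusted p = 0.0523). All 3 miRNAs typical of myeloid cells were called higher in pMCAO (median 1.55), where 4.38% of all miRNAs tested were called higher. They were miR-223-3p (adjusted p = 0.0054 from edgeR), miR-142a-3p (0.0057) and miR-142a-5p (0.0057). The miR-142a strands come from the same hairpin, and the groups overlapped for miR-142a-3p. In sum the list was at 275 to 696 CPM in sham and 733 to 3699 CPM in pMCAO. Of 4 typical of oligodendrocytes, miR-338-3p fell by 0.54 (adjusted p = 0.0453 from edgeR), a call that was kept only without pMCAO replicate 3 when libraries were left out in turn (adjusted p up to 0.154) and in 4 of the 10 alternative fits (adjusted p up to 0.136). The rest of the oligodendrocyte list was not called. miR-219a-2-3p was at -0.15, miR-219a-5p at -0.20 and miR-338-5p, from the same hairpin as miR-338-3p, at 0.013. No list of astrocyte miRNAs was used. The part of cell composition in the miR-29 levels was not tested.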

How the data were processed

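Small RNA from 6 sham and 5 pMCAO brains was sequenced by the authors on an Ion Torrent instrument. Reads of 20 to 30 bp were mapped to mm10 by Bowtie, HTSeq assigned them to miRBase names, and the values they deposited are raw counts for 1907 mature miRNA names in each library. Settings for strand and for reads with several matches are not given in the sources used here. Total counts ran from 744877 to 2319810, and PCR copies remain in them, so counting errors cover counting only.

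The analysis used edgeR 4.0.16 and limma 3.58.1 in R 4.3.3. After filterByExpr (minimum count 10, minimum total count 15), 479 miRNAs were scaled by TMM and tested for pMCAO against sham with glmQLFit and glmQLFTest, without covariates, with Benjamini-Hochberg adjustment over all 479 and a threshold of 0.05. Standard errors were derived from the fold change and the F statistic. Log2 CPM used a prior count of 2, except that outlying libraries were sought on log2 of the CPM itself. Log2 ratios of raw counts within a library, with 0.5 counts added to both, were compared by two-sided exact permutation tests over all arrangements in scipy 1.17.1, where the smallest p is 0.00216.

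The text names the 4 members, the other strands of their hairpins, the 3 miRNAs of highest correlation with each member, from the fixed lists the called miRNAs and up to 2 of the largest changes, and as a reference the most abundant miRNA. miR-122-5p and the uncalled miRNAs of the matrix and oligodendrocyte lists were named after their values were seen. The members and lists were chosen with earlier results of these data known. Alternatives were 3 other scalings, DESeq2 1.42.0 (the tool of the study's methods), edgeR's robust fit, the replicate number as a block, no filter, a minimum of 10 counts in each library, thinning to the smallest total (seed 1) and leaving out each of the 11 libraries. Library totals without miR-29, the ratio of the miR-29c strands and the alternatives of the family's share were added after seeing the data. Sequences came from RefSeq on GRCm38.p6 and gene overlaps from the GENCODE annotation of GRCm38, the same build as mm10. The fit was tested on simulated data.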

Additional observations from a re-analysis of the deposited data

Results flagged for a closer look

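For each of the 7 strands, the 5 ratios of strands and the members' share of counts, the lowest and highest library of each group was compared with its nearest neighbour relative to the range of the group. Of 26 such groups of values, 3 held a library far from the others. Chance alone would give about 1.3 if the groups of values were independent. They share libraries and strand counts, so no conclusion is drawn from that number. All 3 flagged values were of pMCAO replicate 5. Its log2 CPM of miR-29a-3p was 15.2, where the nearest pMCAO library was at 15.8. Its log2 CPM of miR-29c-3p was 10.8, with the nearest at 12.9. Its log2 ratio of miR-29c-3p to miR-29b-3p was -4.79, with the nearest at -2.88. The values without this library are given beside each member, and no reason for the difference was tested.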

How the results depend on the processing

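None of the 4 members passed the threshold in the 10 alternative fits (lowest adjusted p 0.336, miR-29b-3p with the replicate block) or in the 11 fits without a library (lowest 0.172, miR-29b-3p without pMCAO replicate 1). With total counts alone miR-29a-3p was at -0.0070 and miR-29b-3p at -0.11. Signs changed with scaling and filtering: with total counts alone miR-29c-3p was at 0.064 and miR-29a-5p at 0.18, and miR-29a-5p was at 0.0074 with upper-quartile scaling, 0.034 with at least 10 counts in every library and 0.052 after thinning. The cause was not tested, beyond the shift of the median of all miRNAs to 0.18 with total counts alone. The count of called miRNAs, 34 (21 higher, 13 lower), was 18 with at least 10 counts in every library and 19 after thinning, where 406 and 425 miRNAs were tested, 22 with the replicate block, 44 with total counts alone (43 higher, 1 lower) and 43 with DESeq2.

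Without 1 library at a time, log2 fold changes were -0.26 to -0.061 for miR-29a-3p, -0.44 to -0.18 for miR-29b-3p, -0.31 to 0.15 for miR-29c-3p and -0.051 to 0.063 for miR-29a-5p. Calls ran from 16 to 36, and were 19, 16, 19 and 20 without sham replicates 2, 3, 4 and 6 and 17 and 21 without pMCAO replicates 2 and 5. Log2 ratio differences ran from -0.17 to 0.0036 for miR-29b-3p to miR-29a-3p, -0.20 to 0.32 for miR-29c-3p to miR-29a-3p, -0.086 to 0.47 for miR-29c-3p to miR-29b-3p, -0.0081 to 0.29 for miR-29a-5p to miR-29a-3p and -0.48 to 0.26 for miR-29c-5p to miR-29c-3p, none with an exact permutation p under 0.138, and the difference in the family's share ran from -1.38 to 0.47 percentage points.

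Groups share replicate numbers 1 to 5, and same-numbered libraries deviated together with r of -0.070 to 0.230, over 0.1 in 3 of 5 pairs. These r were not compared with those of libraries with different numbers, so they cannot decide whether the numbers mark pairs. The main fit did not take the numbers as pairs. With the replicate block the log2 fold changes were -0.24, -0.33, -0.27 and -0.037 for miR-29a-3p, miR-29b-3p, miR-29c-3p and miR-29a-5p. Sham replicate 6 has no partner in that fit. Counts of the 3p strands were high in every library, so depth limits only the 5p strands. There, counting error reached 8.25% of the level for miR-29a-5p and 16.2% for miR-29b-1-5p (38 counts in pMCAO replicate 2).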

Other observations

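Markers of vessels, blood and other tissues were also read from the fit. Of the endothelial miR-126a-3p and miR-126a-5p, 0 were called (median log2 fold change 0.10), and of the mural miR-143-3p and miR-145a-5p, 0 were called (median -0.13). Of 3 miRNAs typical of erythrocytes, 2 were tested and 0 called, and their summed level was 48.6 to 5332 CPM in sham and 637 to 4700 CPM in pMCAO although the brains had been perfused. Of 4 typical of liver or muscle, 2 were tested and 0 called, and the liver miR-122-5p had at most 12 counts in any library. In edgeR's quasi-likelihood test the smallest of these adjusted p was 0.0921, for miR-133a-3p at a log2 fold change of -0.45.

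The likeness of miR-29c-3p to miR-361-5p was also present inside the groups. With the mean of each group removed, their correlation over the 11 libraries was r = 0.960, and it was 0.937 for miR-99a-5p. These are descriptions of pairs chosen for their high correlation.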
